A study of Drosophila melanogaster with 72 samples.

Results

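The proteasome subunit genes of the fruit fly Drosophila melanogaster were followed through 72 RNA-seq libraries made from whole fly brains. The genes were taken by symbol, as every entry of the deposited tables that starts with Prosalpha, Prosbeta, Rpn or Rpt and goes on with a subunit number, which gave 47 of the 13898 listed genes. Of these, 32 are the standard subunits, here called the expressed subunits: 7 of the alpha ring and 7 of the beta ring of the 20S core, 10 of the base and 8 of the lid of the 19S cap. The other 15 carry a T or an R after the subunit number, the mark of copies known from the testis, and are described last. All 32 expressed subunits passed the filter on low counts over the 72 libraries.

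The proteasome is the protease that degrades proteins tagged with ubiquitin. Its core is a barrel of stacked rings: the alpha rings gate the entry, and the beta rings hold the cutting sites inside, which sit on Prosbeta1, Prosbeta2 and Prosbeta5. The cap binds the tagged protein through receptors such as Rpn10 and Rpn13, removes the ubiquitin with Rpn11 and unfolds the protein with the ring of Rpt ATPases. In neurons the complex is known for the turnover of synaptic proteins, and in flies and mammals the genes of its subunits are known targets of a stress-responsive factor, cnc in the fly, which pairs with maf-S.

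Each library came from 15 pooled brains, and each of the 24 groups had 3 libraries. Wild-type iso31 flies were shaken on a vortexer to keep them awake for 3, 6 or 12 h, ending at zeitgeber time 0 (ZT0, lights on). Undisturbed iso31 flies were sampled at ZT0, ZT4, ZT8, ZT12, ZT16 and ZT20 in light and dark at 25 °C. The undisturbed ZT0 group served as the control of all 3 shaken groups, and the labels do not give the temperature of the shaken flies. The ZT0 libraries are labelled circadian profiling and the shaken ones mechanical sleep deprivation, a label that no undisturbed library carries. An effect of shaking and a difference between these series therefore cannot be told apart. In 5 further lines a GAL4 driver expressed TrpA1, a cation channel that opens on warming, in the cells of that driver. Lines R21H11, R65H02, HC (written Hot cell in the labels) and R60F09 are called wake-promoting and line R85C10 sleep-promoting by the submitters. Each line gave a TrpA1 29C group (GAL4 and UAS-TrpA1, warmed to 29 °C), a GAL4 control 29C group (warmed, without UAS-TrpA1) and a TrpA1 21C group (both transgenes, kept at 21 °C). Wake-promoting lines were warmed for 3 h at the end of the night and dissected at ZT0. The R85C10 line was warmed for 12 h in the day and dissected at ZT12, although its titles still speak of sleep deprivation. A TrpA1 29C group therefore differs from one control in genotype and from the other in temperature, and the cells that each driver labels are not described in the labels.

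Libraries held 4175587 to 13435817 counts (median 8437310), of which 0.132 to 0.273% fell on the 32 expressed subunits, or 7855 to 22409 counts per library. Markers fixed for the neurons, glia, photoreceptors, fat body, muscle, hemocytes and testis were summed in each library. The 5 neuronal markers, all detected, summed to 1296 to 4219 TPM and the 4 glial markers to 1249 to 2456 TPM. Photoreceptor markers (3 of 3 detected) ran from 1.15 to 4560 TPM, fat body markers (4 of 4) from 16.2 to 3896 TPM, muscle markers (3 of 3) from 1.29 to 127 TPM and hemocyte markers (2 of 2) from 2.99 to 97.2 TPM. Testis germ line markers had a count for 4 of 6, with ocn and Mst84Da at 0, and summed to 3.85 to 11.1 TPM. The share of mitochondrial counts ran from 1.68 to 9.17%. R21H11 TrpA1 29C replicate 2, R60F09 TrpA1 21C replicate 1 and HC TrpA1 21C replicate 3 were singled out by eye, with no test, after their values were seen, and counts of called subunits in comparisons of their groups are also given without them. The design text calls the shaken and the circadian samples biological replicates and does not say so of the lines, whose p-values measure the spread between these pools, which may be technical. In whole brains, fewer cells of a type and less RNA per cell cannot be told apart.

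Per unit of transcript length, the 31 expressed subunits other than Prosalpha1 stood close together. Their mean TPM over the 24 group means ran from 51.4 for Rpn2, a scaffold of the base, to 134 for the chymotrypsin-like subunit Prosbeta5, a ratio of 2.61 between the highest and the lowest. All lay between percentiles 64.0 and 86.0 of the genes that passed the filter on low counts. After Prosbeta5 in the order came Rpn10, a ubiquitin receptor, at 125 TPM and the ATPase Rpt1 at 123 TPM, followed by Rpt6 and the alpha subunit Prosalpha7 at 118 TPM each. The lower end was held by Rpn1, the other base scaffold, at 52.1 TPM, the lid subunit Rpn7 at 52.0 TPM and Rpn2. The median subunit level was 100.3 TPM in the alpha ring, 104 TPM in the beta ring, 87.9 TPM in the base and 79.9 TPM in the lid. Group means of a subunit varied with a coefficient of variation of 4.70% for Rpt3 to 16.6% for the alpha subunit Prosalpha5. Prosbeta5 ran from 114 to 183 TPM over the groups and Prosalpha5 from 78.5 to 129 TPM, whereas Rpn2 ran from 33.4 to 61.6 TPM.

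**Figure D1:**
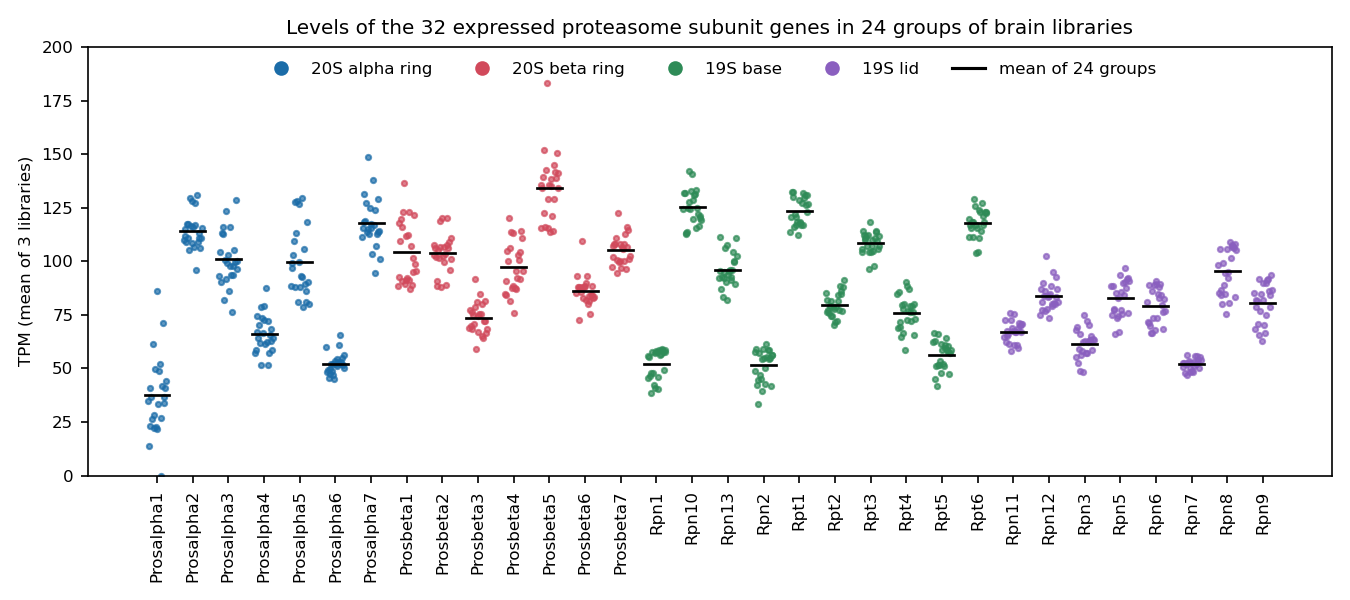
Mean TPM of the 24 groups for each of the 32 expressed subunits (points, one per group; line, mean of the 24 groups), coloured by subcomplex. Most subunits sit between 51.4 and 134 TPM, and Prosalpha1, whose group means run from 0 to 86.1 TPM, is the exception.

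Prosalpha1 is given together with its near-identical copy. Its level in CPM, the count scaled to library size with the trimmed mean of M values, ran from 0 to 47.1, with 0 in 8 libraries, among them all 3 of R85C10 TrpA1 21C. CG30382, the gene of that copy, ran from 13.9 to 121 CPM in the same libraries. The sum of both ran from 32.6 to 121 CPM. Over the 72 libraries the coefficient of variation was 72.6% for Prosalpha1, 34.6% for CG30382 and 23.6% for their sum, beside 17.4% for its neighbour in the ring, Prosalpha2. The log2 CPM of the pair moved with r = −0.30, a description over the libraries of 24 groups, and whether reads were divided between both genes was not tested. Prosalpha1 is counted among the 32, and its own changes are not named. Of the 32, 13 also share exonic bases with a gene on the other strand, at most 12.96% of them (Rpt6 with CG1801), and the sources used here do not say whether the counting used strand. Summed with CG30382, Prosalpha1 was higher after shaking by 0.35 (log2, adjusted p = 0.00174, edgeR) at 3 h, 0.41 (0.000121) at 6 h and 0.21 (0.0438) at 12 h. In TrpA1 29C against GAL4 29C the sum had 0.62 (0.00672) in R21H11 and 0.06 (0.519) in R65H02. It had −0.22 (0.479) in HC, −0.16 (0.756) in R60F09 and −0.26 (0.442) in R85C10. Among the other comparisons within a line, it passed in R60F09 against TrpA1 21C (−0.36, 0.0142) and between the R85C10 controls (0.51, 0.0395).

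**Figure D2:**
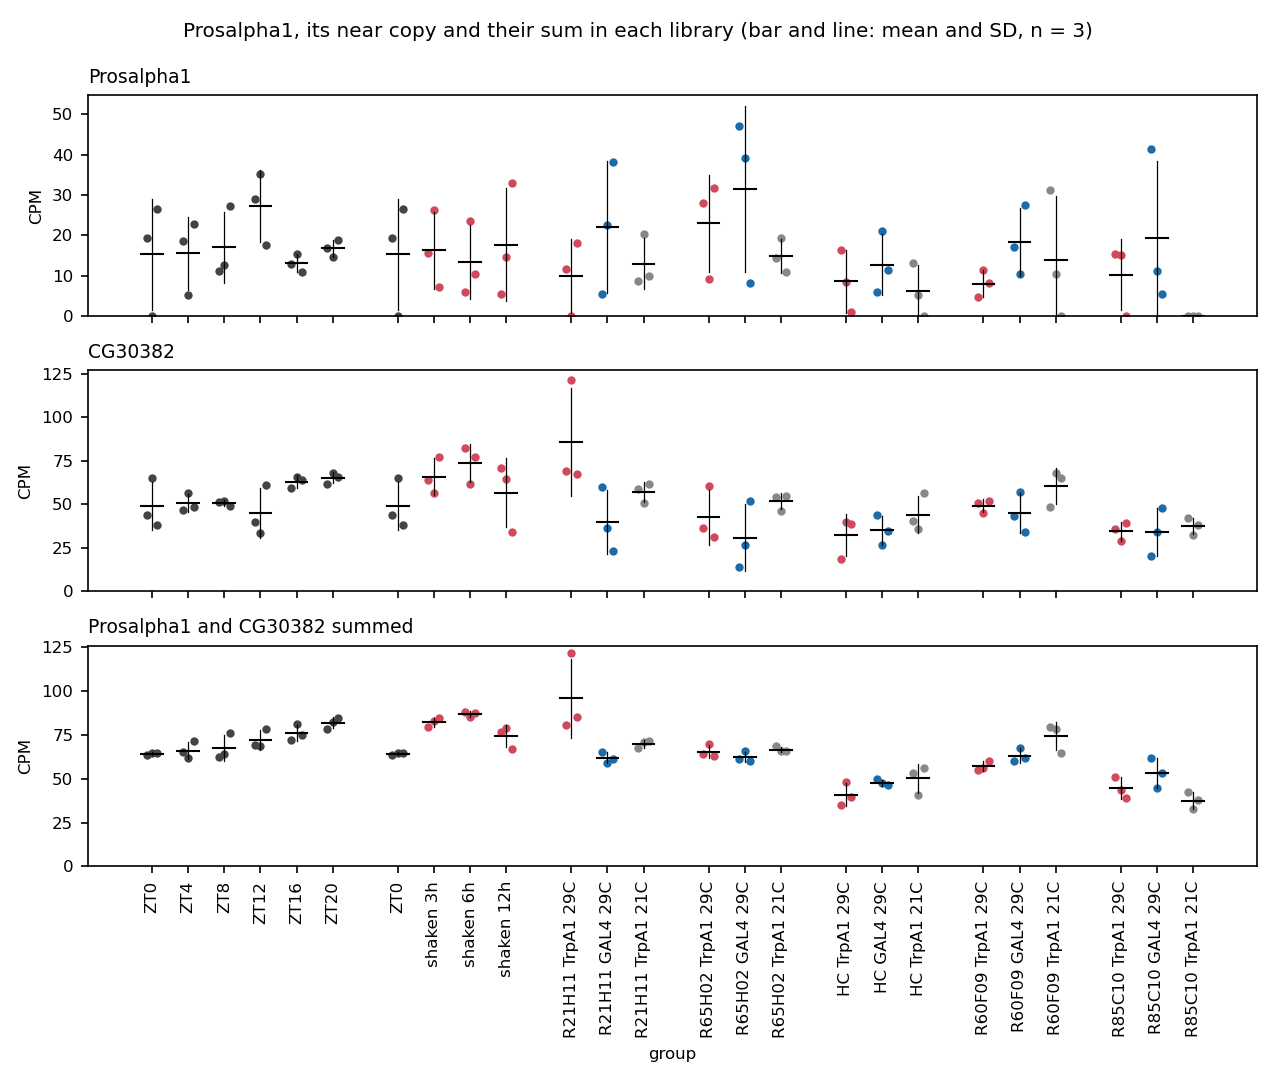
CPM of Prosalpha1, of its near-identical copy CG30382 and of their sum in each of the 72 libraries. Prosalpha1 is at 0 in 8 libraries while the sum stays between 32.6 and 121 CPM.

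Pairs of subunits were also correlated over the libraries. After removing group means, the median Pearson correlation between log2 CPM of a pair of subunits was 0.67 over 78 pairs within the 20S core, 0.43 over 153 pairs within the 19S cap and 0.53 over 234 pairs across core and cap, all over the same 72 libraries and with shared depth. Pairs of other genes were not set beside them. Whether subunits moved together more than other genes of like length was not tested. In CPM, group means of Prosalpha5 differed by up to 2.37-fold, from 26.1 in R85C10 TrpA1 21C to 61.8 in R60F09 TrpA1 21C. Those of Prosbeta4 differed by 2.24-fold, those of Prosbeta5 by 2.22-fold and those of Prosalpha3 by 2.19-fold. Several cap subunits had narrow ranges in CPM: Rpn5 by 1.2-fold, Rpn8 by 1.21-fold, Rpn1 by 1.22-fold and Rpn3 by 1.25-fold. In TPM the coefficient of variation over group means was 10.3, 11.4, 13.4 and 11.1% for these cap subunits in that order. It was 16.6, 12.3, 11.6 and 12.5% for Prosalpha5, Prosbeta4, Prosbeta5 and Prosalpha3, so in TPM the values of these cap and core subunits overlapped.

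After shaking, the core subunits took more of the counts than in undisturbed brains. After 3 h, 16 of the 32 expressed subunits were higher than in undisturbed ZT0 brains and 0 were lower (edgeR, adjusted p under 0.05), where 23.6% of all genes tested passed in either direction. After 6 h, 21 were higher and 2 lower (46.1% of genes). After 12 h, 9 were higher and 1 lower (16.3% of genes), and leaving out shaken 12 h replicate 2, ZT0 replicate 1 or ZT0 replicate 3 left 6. Here and below, counts with a library left out come without the share of all genes. A move in them is therefore not read as particular to the subunits. The median log2 change of the subunits was 0.21, 0.31 and 0.19 at 3, 6 and 12 h, beside 0.03, 0.03 and 0.01 for all genes, whereas on log2(TPM + 1) it was −0.04, −0.07 and −0.06, beside all-gene medians of −0.21, −0.35 and −0.21. The alpha and beta rings had the larger medians, 0.67 and 0.64 at 6 h, beside 0.26 for the base and 0.06 for the lid. The 3 comparisons share the ZT0 libraries, so their values stand side by side and are not independent.

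Prosbeta5 was at 81.1, 89.6 and 81.4 CPM after 3 h, 72.3, 81.5 and 72.8 CPM after 6 h and 72.1, 75.6 and 77.0 CPM after 12 h, against 54.7, 64.4 and 58.2 CPM in undisturbed ZT0 brains. Every shaken library lay above every ZT0 library. The log2 changes were 0.50 (SE 0.0761, adjusted p = 0.000413) at 3 h, 0.33 (0.00238) at 6 h and 0.34 (0.00855) at 12 h by edgeR. Prosbeta1, which carries the caspase-like site, had 48.3, 42.1 and 46.1 CPM after 3 h, 44.2, 52.5 and 51.2 after 6 h and 40.6, 44.1 and 36.8 after 12 h, against 26.3, 30.7 and 25.8 CPM in ZT0 brains. Its groups did not overlap at any duration, with log2 changes of 0.72 (adjusted p = 0.000249), 0.81 (1.10e-05) and 0.55 (0.00361) at 3, 6 and 12 h.

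Prosalpha5 had the largest log2 change of the 32 at 6 h. It stood at 53.3, 52.0 and 66.0 CPM after 6 h, against 29.8, 30.5 and 27.4 CPM in ZT0 brains, and at 45.0, 39.7 and 46.4 CPM after 3 h. Its log2 change at 6 h was 0.93 (SE 0.109, adjusted p = 5.75e-06), beside 0.57 (0.00182) at 3 h. Prosalpha4, another alpha subunit, had 44.5, 43.5 and 49.2 CPM after 6 h, against 27.0, 27.6 and 27.1 CPM in ZT0 brains. No library of one group reached the other, and the log2 change was 0.72 (SE 0.0783, adjusted p = 2.85e-06). At 12 h the largest rises past the threshold were those of Prosbeta1, Prosalpha7 (0.55, adjusted p = 0.00266) and Prosalpha3 (0.53, 0.00495).

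In the cap the changes were smaller, and the scaffolds went the other way. Rpn11, the deubiquitinase, had 45.8, 46.5 and 41.1 CPM after 6 h, against 33.9, 35.3 and 32.6 CPM in ZT0 brains, a log2 change of 0.37 (adjusted p = 0.0021). At 3 and 12 h its log2 changes of 0.19 and 0.21 did not pass the test (adjusted p = 0.115 and 0.101). The ATPase Rpt3 had 88.0, 90.9 and 96.3 CPM after 6 h, against 70.9, 68.9 and 70.4 CPM in ZT0 brains, with 0.36 (0.000738), beside 0.21 (0.0427) at 3 h and 0.22 (0.0533) at 12 h. Rpn2 was lower, at 75.6, 72.8 and 67.2 CPM after 6 h and 78.8, 70.9 and 86.1 after 12 h, against 94.5, 92.7 and 92 CPM in ZT0 brains. It fell by 0.40 (log2 change −0.40, adjusted p = 0.000263) at 6 h and had −0.24 (0.0293) at 12 h. Rpn1 had 68.9, 74.5 and 81.9 CPM after 6 h, against 81.3, 85.6 and 87.8 CPM in ZT0 brains, where the groups overlapped by 1 library, with −0.21 (0.0313).

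**Figure D3:**
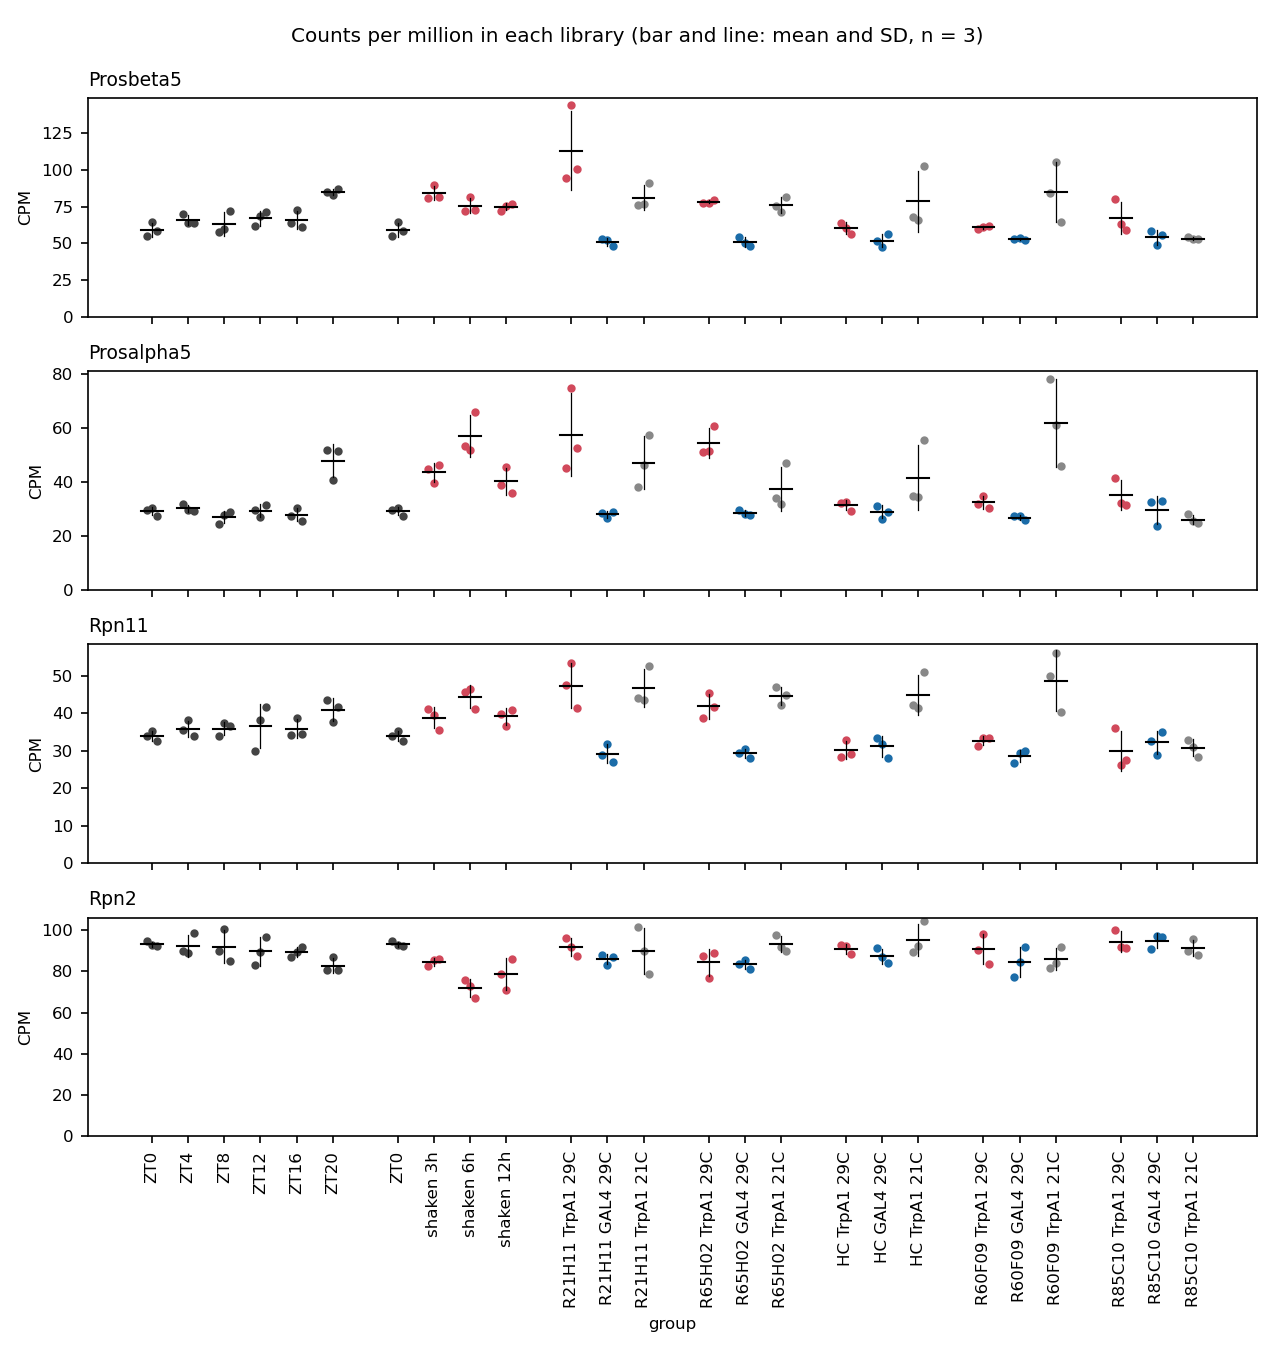
CPM of Prosbeta5, Prosalpha5, Rpn11 and Rpn2 in every library (points; bars, mean and SD of 3 libraries), by zeitgeber time, shaking and line, with TrpA1 29C, GAL4 control 29C and TrpA1 21C side by side. Prosbeta5 is above every ZT0 library in all shaken libraries, and R21H11 TrpA1 29C replicate 2 stands alone at 144 CPM.

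Among the 3 durations, 4 subunits differed (15.8% of genes; edgeR), namely Prosbeta4 (adjusted p = 0.0114), Prosalpha5 (0.015), Prosbeta6 (0.0198) and Prosalpha4 (0.0356). Prosbeta4 showed the pattern, with 29.7, 34.8 and 36.6 CPM at 3 h, 45.5, 47.1 and 42.7 CPM at 6 h and 32.9, 37.1 and 31.9 CPM at 12 h, so all 3 libraries of 6 h lay above the rest. Prosbeta5, Rpn11 and Rpt3 did not pass (adjusted p = 0.202, 0.267 and 0.253). The count was 10 without 12 h replicate 2, 2 without 6 h replicate 1 or 6 h replicate 3, and 1 without 6 h replicate 2. With the length-trend term described next, 0 of the 32 passed (2.68% of genes).

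The change of a gene with shaking followed the length of its transcript, and the core subunits are short. By the Ensembl annotation, the median transcript had 973 nt in the alpha ring and 944 nt in the beta ring, against 1501.5 nt in the base and 1457.5 nt in the lid. Over the 31 subunits other than Prosalpha1, Spearman's rho between length and log2 change at 6 h was −0.87, beside −0.73 over all genes; it was −0.79 and −0.64 at 3 h and −0.78 and −0.63 at 12 h. These are correlations across genes, which are not independent replicates. The deviation of each gene's log2 CPM from its mean over the fit was therefore taken. Its trend on length was fitted in each library and entered as an offset. With that offset, 1 subunit (Prosbeta1, 0.41) was higher at 3 h (3.78% of genes), 0 passed at 12 h (1.47% of genes) and 9 passed at 6 h (14.6% of genes). The 9 were Prosalpha5 (0.44), Prosalpha4 (0.35), Prosbeta1 (0.30) and Prosalpha7 (0.22), which were higher, and Prosbeta2 (−0.28), Rpn8 (−0.27), Rpt5 (−0.26), Rpn5 (−0.25) and Rpn2 (−0.22), which were lower. The median change at 6 h with the offset was −0.00. With the offset, rho between length and log2 change over the 31 subunits was −0.55, −0.64 and −0.51 at 3, 6 and 12 h. Over all genes it was 0.007, 0.001 and −0.015.

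By limma on log2(TPM + 1), 3 subunits were higher and 6 lower at 3 h (34.7% of genes), 6 higher and 10 lower at 6 h (54.2%) and 4 higher and 6 lower at 12 h (29.8%). Called higher at 6 h on that scale were Prosalpha5 (0.50), Prosbeta1 (0.38), Prosalpha4 (0.30), Prosalpha3 (0.27), Prosbeta4 (0.26) and Prosalpha7 (0.25), and called lower were 9 cap subunits, led by Rpn2 (−0.79) and Rpn1 (−0.61), and Prosbeta2 (−0.28). The TPM values were not TMM-scaled, and the all-gene median at 6 h on that scale, given above, was lower than the change of Prosbeta2. A call there is not read as a direction relative to other genes. The summed TPM of 13 core subunits (without Prosalpha1) divided by the summed TPM of the 18 cap subunits was 0.913 ± 0.0370 after 3 h, 0.994 ± 0.0280 after 6 h and 0.909 ± 0.0339 after 12 h, against 0.743 ± 0.0175 in ZT0 brains (SD, n = 3 each). Other measures moved with it. The mitochondrial share averaged 4.13, 6.38 and 4.26% after 3, 6 and 12 h, against 2.62% in ZT0 brains. The neuronal marker sum averaged 2720, 2021 and 2784 TPM after 3, 6 and 12 h, against 3594 TPM in ZT0 brains, and photoreceptor markers reached 3303 TPM in 1 library of 3 h and 2285 TPM in 1 library of ZT0. Their part in the subunit changes was not tested.

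**Figure D4:**
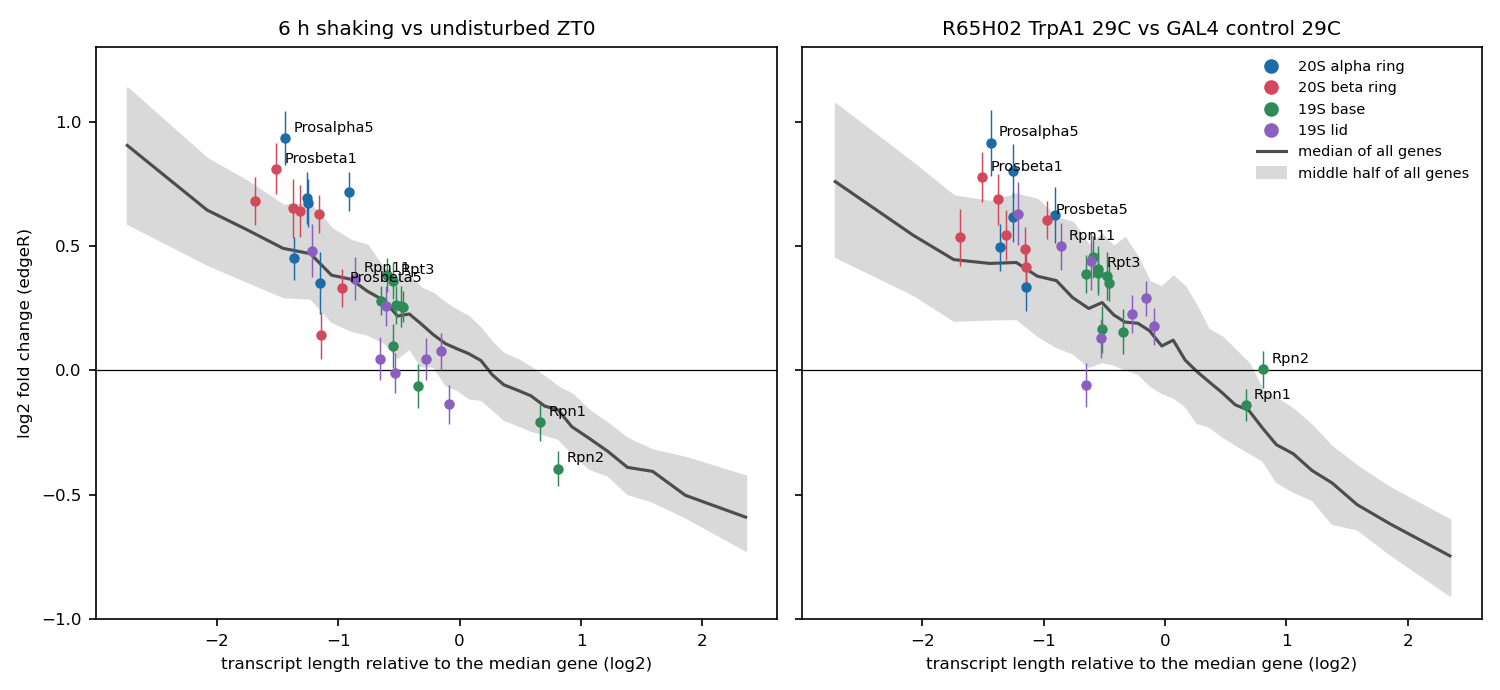
Log2 change of each of the 31 subunits other than Prosalpha1 (points with SE, coloured by subcomplex) against log2 transcript length relative to the median gene, for 6 h of shaking over undisturbed ZT0 and for R65H02 TrpA1 29C over its GAL4 control. The grey line and band are the median and interquartile range of all genes in length bins. At 6 h Spearman's rho between length and log2 change is −0.87 over the 31 subunits.

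Over the day, 12 of the 32 subunits differed among the 6 zeitgeber times in undisturbed brains (15.1% of genes, edgeR), and all 12 had their highest mean at ZT20. The share of all called genes with their highest mean at ZT20 is not given here, so this is not read as particular to the subunits. The 12 were the core subunits Prosalpha3, Prosalpha4, Prosalpha5, Prosalpha7, Prosbeta1, Prosbeta3, Prosbeta4, Prosbeta5 and Prosbeta7 and the cap subunits Rpn10, Rpn12 and Rpt6. Prosalpha5 had 51.8, 40.8 and 51.4 CPM at ZT20, while its libraries at the other times lay between 24.4 and 31.8 CPM (adjusted p = 7.79e-05). Prosbeta5 had 54.7, 64.4 and 58.2 CPM at ZT0, 70.1, 63.9 and 64.1 at ZT4, 57.6, 59.6 and 72.2 at ZT8, 61.4, 68.3 and 71.2 at ZT12, 64.0, 73.0 and 61.0 at ZT16 and 85, 82.8 and 87.3 at ZT20. Its ZT20 libraries were above all others, and the earlier times overlapped (adjusted p = 0.00626). Prosalpha3 (0.000894) and Prosbeta1 (0.0081) passed as well, whereas Rpn11 (0.455) and Rpt3 (0.228) did not.

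The difference over the day depended on the ZT20 group. Without ZT20, 0 of the 32 passed (edgeR; 0.522% of genes), with 1 at an unadjusted p under 0.05. Leaving out ZT20 replicate 1 left 6 and leaving out ZT20 replicate 3 left 3. With the length-trend offset, Prosalpha5 (adjusted p = 0.00111), Prosalpha3 (0.0281) and Prosalpha7 (0.0427) passed (5.17% of genes). At ZT20 the mitochondrial share averaged 4.82%, against 2.45 to 2.62% at the other times, the neuronal marker sum 2572 TPM, against 3385 to 3594 TPM, and the ratio of summed core to summed cap TPM 0.963, against 0.743 to 0.812. Their part was not tested.

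In line R21H11 the subunits were higher in warmed TrpA1 brains than in warmed GAL4 controls, and 1 subunit passed the test against TrpA1 brains kept at 21 °C. Against the GAL4 control 23 of 32 were higher and 0 lower (47.2% of genes; edgeR), and 21 were called without TrpA1 29C replicate 2. Against TrpA1 21C, 1 was higher, Prosalpha4 (3.03% of genes), and 0 with the replicate block (0.934% of genes), a fit with a term for the replicate number, which the labels do not say pairs samples. Between the controls, GAL4 29C over TrpA1 21C, 0 were higher and 7 lower (16.5% of genes). The median log2 change was 0.62, 0.26 and −0.30 in these 3 comparisons, beside 0.09, 0.03 and −0.02 for all genes. By log2(TPM + 1) the median between the controls was 0.06, and the other 2 kept their sign at 0.15 and 0.14. The TPM values were not TMM-scaled, and all-gene medians on that scale are not given here.

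Prosbeta5 had 94.4, 144 and 100.5 CPM in R21H11 TrpA1 29C brains, against 52.8, 52.4 and 47.8 CPM in GAL4 29C and 75.8, 76.9 and 90.7 CPM in TrpA1 21C brains. The warmed TrpA1 libraries were above both controls, and the library at 144 CPM also had a mitochondrial share of 6.5% and a neuronal marker sum of 1296 TPM. The log2 change was 1.14 (SE 0.158, adjusted p = 0.00351) against GAL4 and 0.49 (0.0933) against TrpA1 21C. Prosalpha4 was the one subunit called against both controls (1.45% of genes were), with 44.7, 59.3 and 46.6 CPM in TrpA1 29C, against 29.3, 28.5 and 27.4 CPM in GAL4 29C and 29.8, 27.5 and 35.3 CPM in TrpA1 21C brains. All 3 warmed TrpA1 libraries lay above the 6 control libraries, with log2 changes of 0.82 (0.00351) and 0.72 (0.0235). This call was lost with the replicate block and without TrpA1 21C replicate 1 or TrpA1 21C replicate 2, and 1 subunit was called without TrpA1 29C replicate 2.

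Prosalpha3 had 50.9, 92 and 48.4 CPM in R21H11 TrpA1 29C, against 29.9, 30.8 and 28.4 CPM in GAL4 29C, and Prosbeta1 had 50.9, 77.9 and 46.9 CPM, against 26.6, 29.2 and 26.8 CPM. Replicate 2 was the highest in both, and no library overlapped the GAL4 controls (1.09, adjusted p = 0.00414, and 1.08, 0.0036). Rpn11 had 47.4, 53.4 and 41.3 CPM in TrpA1 29C, against 28.8, 31.9 and 26.9 CPM in GAL4 29C and 44.1, 43.6 and 52.6 CPM in TrpA1 21C. It was higher than in the GAL4 control (0.69, 0.00398) and overlapped TrpA1 21C (0.04, 0.876). Rpt3 likewise had 0.47 (0.00633) and 0.17 (0.324). Between the controls Prosbeta1 (−0.80, 0.0254), Prosalpha5 (−0.73, 0.0325) and Prosbeta4 (−0.73, 0.0275) had the largest changes, followed by Rpn11 (−0.66, 0.0152) and Prosbeta5 (−0.65, 0.025), while Rpt3 did not pass (−0.30, 0.0734). That count of 7 was 18 without TrpA1 29C replicate 2, 3 without TrpA1 21C replicate 2, 1 without GAL4 29C replicate 2 and 0 without GAL4 29C replicate 1, GAL4 29C replicate 3 or TrpA1 21C replicate 3.

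Under the length-trend offset 4 subunits were higher in R21H11 TrpA1 29C than in GAL4 29C (13.7% of genes), Prosbeta5 (0.58), Prosalpha3 (0.43), Rpn2 (0.39) and Prosbeta1 (0.37). Against TrpA1 21C, Prosalpha4 (0.51) was higher (9.25% of genes), and between the controls 1 was higher and 3 lower (12.6% of genes). By limma on log2(TPM + 1) the counts were 9 higher (42.9% of genes), 0 (0.776%) and 0 (7.89%), where edgeR called 1 subunit against TrpA1 21C and 7 between the controls. The mitochondrial share averaged 4.50% in TrpA1 29C, against 2.08% in GAL4 29C and 4.30% in TrpA1 21C brains. The neuronal marker sum averaged 1960 TPM in TrpA1 29C, against 4007 and 2527 TPM in GAL4 29C and TrpA1 21C, and the fat body marker sum 1307 TPM, against 216 and 488 TPM. Their part was not tested.

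In line R65H02, 6 subunits were higher than in both controls, 5 of them in the alpha ring. Against the GAL4 control 24 of 32 subunits were higher and 0 lower (53.8% of genes; edgeR). Against TrpA1 21C, 6 were higher and 0 lower (30.3% of genes), and the same 6 were called against both controls, 6 of 32 beside 17.5% of genes: Prosalpha2, Prosalpha3, Prosalpha4, Prosalpha5, Prosalpha7 and the lid subunit Rpn6, a scaffold that clamps the lid to the core. Between the controls, GAL4 29C over TrpA1 21C, 18 were lower (48.3% of genes). The median log2 change was 0.41, 0.09 and −0.28, beside 0.05, 0.00 and −0.03 for all genes. By log2(TPM + 1), which was not TMM-scaled, it was 0.05, 0.00 and 9.01e-05. All-gene medians on that scale are not given here, so the other sign between the controls is not read as a reversal. Against TrpA1 21C the share of subunits called was below that of all genes, and against both it was near it. Called against both were 1 subunit with the length-trend offset, Prosalpha5, and 2 by log2(TPM + 1), Prosalpha5 and Prosalpha7.

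Prosalpha4 had 49.5, 52.2 and 57 CPM in R65H02 TrpA1 29C brains, against 34.1, 39.5 and 28.0 CPM in GAL4 29C and 36.1, 35.3 and 34.3 CPM in TrpA1 21C brains. All 3 warmed TrpA1 libraries lay above the 6 control libraries (0.62, adjusted p = 0.000442, against GAL4; 0.59, 0.00162, against TrpA1 21C). Prosalpha7 had 64.3, 65.8 and 68.1 CPM in TrpA1 29C, against 41.8, 40.5 and 46.0 CPM in GAL4 29C and 43.7, 42.8 and 55.5 CPM in TrpA1 21C, again without overlap (0.62, 0.000205, and 0.49, 0.00265). Prosalpha5 had 51.0, 51.5 and 60.8 CPM in TrpA1 29C, against 29.7, 28.1 and 27.8 CPM in GAL4 29C and 34.0, 31.9 and 47 CPM in TrpA1 21C. It too stayed above both controls in every library (0.92, 8.33e-05, and 0.54, 0.00693). Rpn6 had 84.7, 86.2 and 87.6 CPM in TrpA1 29C, against 64.5, 71.9 and 73.8 CPM in GAL4 29C and 68.9, 70.1 and 72.1 CPM in TrpA1 21C, with no overlap (0.29, 0.00367, and 0.30, 0.00635).

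Prosbeta5 passed the test against one R65H02 control. It had 77.6, 77.6 and 79.5 CPM in TrpA1 29C, against 54.5, 50.3 and 47.8 CPM in GAL4 29C and 75.4, 71.2 and 81.5 CPM in TrpA1 21C. It overlapped the TrpA1 21C group and not the GAL4 29C group (0.60, adjusted p = 2.79e-05, and 0.05, 0.68). Rpn11 had 38.6, 45.3 and 41.6 CPM in TrpA1 29C, against 29.4, 30.5 and 28.2 CPM in GAL4 29C and 47, 42.2 and 44.9 CPM in TrpA1 21C (0.50, 0.000613, and −0.09, 0.47). Rpt3 had 0.39 (0.00187) and 0.03 (0.786). Between the controls Rpn11 (−0.59, 0.000237), Prosbeta1 (−0.57, 0.000549) and Prosbeta5 (−0.56, 7.97e-05) had the largest falls, and Rpt3 was lower as well (−0.36, 0.00424).

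Once length was allowed for by the offset, 5 subunits were higher and 1 lower in R65H02 TrpA1 29C than in GAL4 29C (29.4% of genes), with Prosalpha5 (0.47) and Prosalpha3 (0.39) at the top and Rpn9 (−0.33) the lower one. Against TrpA1 21C, Prosalpha4 (0.49), Prosalpha5 (0.42), Prosalpha7 (0.38) and Rpn6 (0.26) were higher (31.1% of genes), and Prosalpha5 alone was called against both. Between the controls 1 was higher and 6 lower (39.6% of genes). In limma, log2(TPM + 1) gave counts of 7 higher and 3 lower (57.4% of genes), 3 higher (25.2%), and 4 higher and 4 lower between the controls (52.5%). The mitochondrial share averaged 4.99% in TrpA1 29C, against 2.21% in GAL4 29C and 3.39% in TrpA1 21C. The neuronal marker sum averaged 2232 TPM in TrpA1 29C, against 4109 and 2632 TPM in GAL4 29C and TrpA1 21C, and the fat body sum 1196 TPM, against 320 and 553 TPM. Their part was not tested.

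Lines HC and R60F09 showed no subunit past the test against their GAL4 controls and lower counts than their TrpA1 21C groups. In HC, 0 of 32 passed against GAL4 29C (0.989% of genes; edgeR), with 4 at an unadjusted p under 0.05 and 0 by DESeq2. Against TrpA1 21C, 0 were higher and 11 lower (33.5% of genes), and GAL4 29C over TrpA1 21C gave 0 higher and 20 lower (33.4% of genes). None was called against both controls (0.523% of genes; edgeR, and 0 by DESeq2). The median log2 change was 0.06, −0.31 and −0.41, beside 0.00, −0.03 and −0.03 for all genes; by log2(TPM + 1) the change against TrpA1 21C was 0.04, with an all-gene median of 0.30.

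Prosbeta1 had 29.4, 30.9 and 25.5 CPM in HC TrpA1 29C, against 31.4, 25.4 and 25.8 CPM in GAL4 29C and 43.1, 35.7 and 63.1 CPM in TrpA1 21C. The warmed groups overlapped each other and lay below all 21 °C libraries (−0.71, adjusted p = 0.00933, against TrpA1 21C; −0.77, 0.00717, between the controls). Rpn11 had 28.4, 32.8 and 29.2 CPM in TrpA1 29C, against 33.5, 31.8 and 28.1 CPM in GAL4 29C and 42.3, 41.5 and 51.1 CPM in TrpA1 21C, with the same order of groups (−0.57, 0.0034; between the controls −0.52, 0.00574; −0.04, 0.912, against GAL4). Prosalpha3 also fell (−0.57, 0.0143, against TrpA1 21C). Prosbeta5 had 64.1, 60.6 and 56.2 CPM in TrpA1 29C, against 51.4, 47.4 and 56.5 CPM in GAL4 29C and 67.6, 65.8 and 103 CPM in TrpA1 21C. It did not pass against GAL4 (0.22, 0.526) or against TrpA1 21C (−0.37, 0.0635), and passed between the controls (−0.59, 0.0101). Rpt3 had 0.11 (0.6), −0.22 (0.0727) and −0.34 (0.0147) in the same order, and Rpn12, a lid subunit, −0.57 (0.0141) between the controls.

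These HC counts rested on single libraries. Against TrpA1 21C the count of 11 became 7 without TrpA1 21C replicate 3 or GAL4 29C replicate 3, 4 without TrpA1 29C replicate 2, 5 without TrpA1 29C replicate 3 and 18 without TrpA1 21C replicate 2. Between the controls the 20 became 10 without TrpA1 21C replicate 3, 5 without GAL4 29C replicate 2 and 8 without GAL4 29C replicate 3, and against GAL4 29C the 0 became 1 without TrpA1 21C replicate 3. Under the length-trend offset 5 were lower against TrpA1 21C (33.3% of genes), Prosalpha3, Prosbeta1, Rpt2, Rpt5 and Rpn11, and 5 between the controls (25.2% of genes). By limma on log2(TPM + 1) 7 were higher and 0 lower against TrpA1 21C (45.3% of genes) and 5 higher and 1 lower between the controls (46.5% of genes). Against TrpA1 21C the all-gene median on that scale, given above, was larger than the subunit median. The mitochondrial share averaged 1.98% in TrpA1 29C, against 2.44% in GAL4 29C and 4.06% in TrpA1 21C, and the neuronal marker sum 3712 TPM, against 3801 and 2461 TPM. Their part was not tested.

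In R60F09, 0 of 32 passed against GAL4 29C (0.247% of genes; edgeR), with 2 at an unadjusted p under 0.05 and 0 by DESeq2. Against TrpA1 21C, 0 were higher and 16 lower (44.7% of genes), and 13 were called without TrpA1 21C replicate 1. GAL4 29C over TrpA1 21C gave 0 higher and 21 lower (48.9% of genes), or 17 called without that library, and none was called against both controls (0.0898% of genes; edgeR, and 0 by DESeq2). The median log2 change was 0.09, −0.35 and −0.39, beside 0.00, −0.01 and −0.02 for all genes; by log2(TPM + 1) the last 2 were 0.22 and 0.11, with all-gene medians of 0.47 and 0.43. The beta ring had medians of −0.53 against TrpA1 21C and −0.65 between the controls.

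Prosalpha5 had 31.8, 35 and 30.6 CPM in R60F09 TrpA1 29C, against 27.3, 27.4 and 25.9 CPM in GAL4 29C and 78.4, 61.1 and 45.8 CPM in TrpA1 21C. The 21 °C libraries were the highest and the most spread (−0.90, adjusted p = 0.00107, against TrpA1 21C; −1.16, 0.000306, between the controls). Prosbeta4 had 24, 24.3 and 23.8 CPM in TrpA1 29C, against 22.1, 26.3 and 24.9 CPM in GAL4 29C and 56.4, 50.2 and 32.8 CPM in TrpA1 21C, so the warmed groups overlapped and lay below the 21 °C group (−0.93, 0.00127; between the controls −0.89, 0.00136). Prosbeta1 had −0.85 (0.00335) against TrpA1 21C and Prosbeta3 −0.96 (0.000262) between the controls. Rpn11 had 31.3, 33.3 and 33.4 CPM in TrpA1 29C, against 26.8, 29.3 and 29.9 CPM in GAL4 29C and 49.9, 56.1 and 40.2 CPM in TrpA1 21C, above one control and below the other (0.17, 0.771, and −0.56, 0.00368; between the controls −0.73, 0.000775). Prosbeta5 had 59.7, 61.3 and 61.6 CPM in TrpA1 29C, against 53.1, 53.5 and 52.0 CPM in GAL4 29C and 84.3, 105 and 64.6 CPM in TrpA1 21C. Its changes were 0.19 (0.776), −0.46 (0.0184) and −0.65 (0.00283), and those of Rpt3 0.16 (0.735), −0.23 (0.0744) and −0.39 (0.00648).

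The length-trend offset changed this: the R60F09 comparison with TrpA1 21C gave 4 higher, Prosbeta2, Rpt4, Rpn3 and Rpn8, and 4 lower, Prosalpha5, Prosbeta1, Prosbeta4 and Rpt6 (33.3% of genes), and the controls gave 2 higher and 6 lower (32% of genes). On the log2(TPM + 1) scale, 10 were higher and 0 lower against TrpA1 21C (55.9% of genes), and 5 were higher and 3 lower between the controls (54.2% of genes). In both comparisons the all-gene median on that scale, given above, was larger than the subunit median. The count of 16 against TrpA1 21C was 9 without TrpA1 21C replicate 2 and 10 without TrpA1 29C replicate 1. The mitochondrial share averaged 1.84% in TrpA1 29C, against 2.16% in GAL4 29C and 6.05% in TrpA1 21C (9.17% in replicate 1). The neuronal marker sum averaged 3711 TPM in TrpA1 29C, against 3734 and 2041 TPM in GAL4 29C and TrpA1 21C. Their part was not tested.

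In the sleep-promoting line R85C10 no subunit passed in edgeR, and against TrpA1 21C this depended on the analysis. The counts were 0 of 32 against GAL4 29C (1.44% of genes; edgeR; 3 at an unadjusted p under 0.05, and 0 by DESeq2), 0 against TrpA1 21C (18.7% of genes; 8 unadjusted, 1 by DESeq2) and 0 between the controls (9.02% of genes; 1 unadjusted, 1 by DESeq2), and none against both (0.955% of genes; 0 by DESeq2). Against TrpA1 21C, 8 were higher with the replicate block (25.6% of genes), 5 by limma on log2(TPM + 1) (17.3%) and 4 with no low-count filter (13%), with 0 lower in each. Prosbeta5 had 79.9, 62.8 and 59.0 CPM in TrpA1 29C, against 58.3, 48.6 and 55.4 CPM in GAL4 29C and 54.3, 52.7 and 52.7 CPM in TrpA1 21C. All 3 warmed TrpA1 libraries were above the 6 controls, without passing the test (0.31, adjusted p = 0.277, and 0.34, 0.059). Rpn11 had 36.2, 26.1 and 27.6 CPM in TrpA1 29C, against 32.6, 29.0 and 35.1 CPM in GAL4 29C and 32.9, 31.1 and 28.4 CPM in TrpA1 21C, and all groups overlapped (−0.11, 0.744, and −0.04, 0.846). Rpt3 had 0.15 (0.506) and 0.15 (0.267). The count against TrpA1 21C was 5 without GAL4 29C replicate 2, 3 without TrpA1 29C replicate 3, 2 without TrpA1 29C replicate 2 and 1 without GAL4 29C replicate 1.

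Fitted together, the 4 wake-promoting lines gave a mean effect against GAL4 29C in which 26 of 32 subunits were higher and 0 lower (56.9% of genes; edgeR). The mean effect against TrpA1 21C had 3 higher and 5 lower (44.3% of genes). The 2 comparisons share the TrpA1 29C libraries. The subunit medians were 0.32 and −0.07, beside 0.06 and −0.01 for all genes. By log2(TPM + 1), which was not TMM-scaled, they were 0.11 and 0.10. All-gene medians on that scale are not given here, so the other sign against TrpA1 21C is not read as a reversal. Against GAL4 29C, Prosalpha5 (0.59, adjusted p = 9.66e-06), Prosbeta5 (0.55, 1.43e-06) and Prosalpha3 (0.50, 6.44e-05) had the largest mean effects, with 0.34 (2.26e-05) for Rpn11 and 0.29 (7.07e-06) for Rpt3. Against TrpA1 21C, Prosalpha4 (0.26, 0.00241), Rpt4 (0.15, 0.0242) and Rpn6 (0.10, 0.0324) were higher, and Rpn11 (−0.29, 0.000131), Prosbeta4 (−0.27, 0.0176), Prosbeta1 (−0.26, 0.0257), Rpt2 and Rpt6 were lower, while Prosbeta5 (−0.07, 0.485) and Rpt3 (−0.06, 0.338) did not pass. The count of 8 was 3 without replicate 1 of every group and 5 without replicate 3.

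With the length-trend offset the mean effect against GAL4 29C had 10 higher and 2 lower (32.9% of genes) and that against TrpA1 21C 6 higher and 5 lower (50.7% of genes). In limma, log2(TPM + 1) gave counts of 15 higher and 2 lower (54% of genes) and 11 higher and 0 lower (46.2% of genes). The mean effect for Prosalpha4 was higher against TrpA1 21C in all 3 of these analyses, with 0.32 under the offset and 0.42 by log2(TPM + 1). The lines were not alike in it: by edgeR it had 0.72 in R21H11, 0.59 in R65H02, −0.005 in HC and −0.30 in R60F09. The test for a difference among lines passed (adjusted p = 0.000276, edgeR).

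The lines differed from one another. A test for a difference among the 4 lines passed for 16 subunits against GAL4 29C (36.7% of genes; edgeR) and for 23 against TrpA1 21C (41.6% of genes). Prosbeta5 had 1.14 in R21H11, 0.60 in R65H02, 0.22 in HC and 0.19 in R60F09 against GAL4 29C (adjusted p = 0.00308), and 0.49, 0.05, −0.37 and −0.46 against TrpA1 21C (0.00159). Prosalpha7 had 0.50 in R21H11, 0.49 in R65H02, −0.32 in HC and −0.63 in R60F09 against TrpA1 21C (0.000184). Rpt3 did not pass against GAL4 29C (0.078) and passed against TrpA1 21C (0.0182). The 16 became 1 without replicate 1 and 0 without replicate 2, where 1 library of each group was left out, and the 23 became 7 and 4. With the length-trend offset 3 passed against GAL4 29C (17.3% of genes), Prosalpha3, Prosbeta1 and Prosbeta5, and 7 against TrpA1 21C (16.2% of genes).

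**Figure D5:**
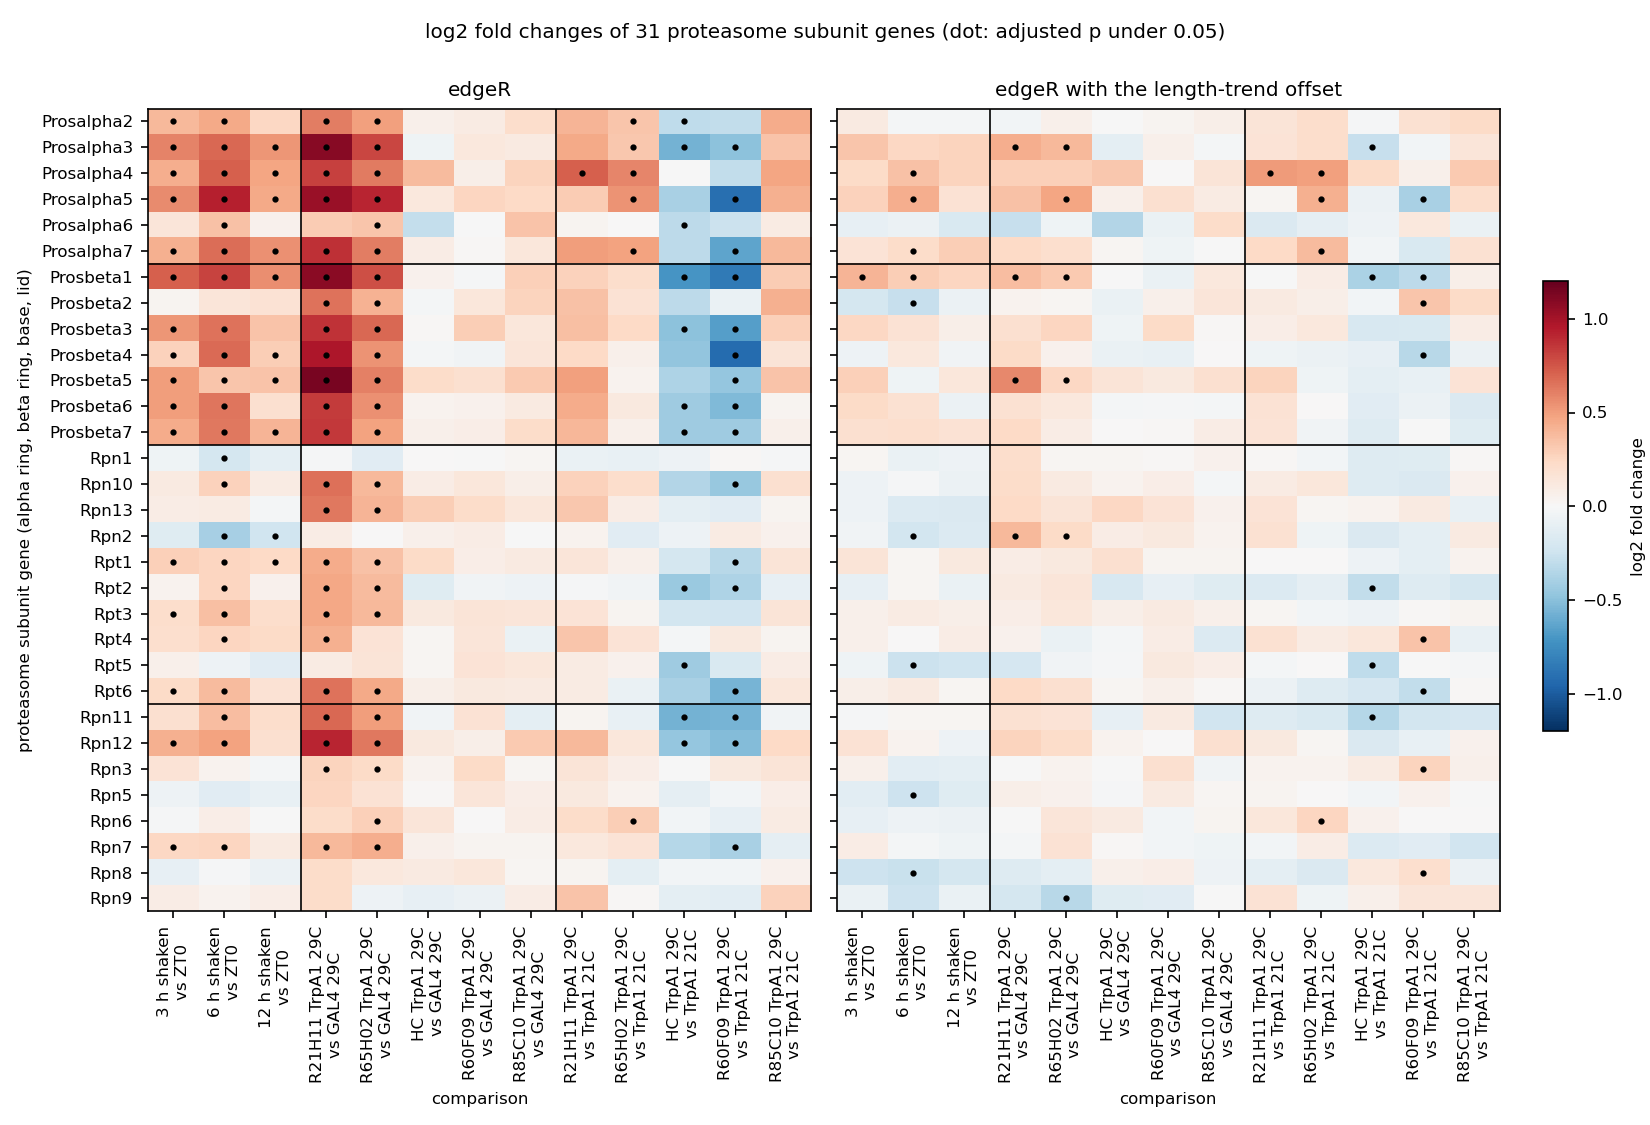
Log2 change of the 31 subunits other than Prosalpha1 in 13 comparisons, by edgeR (left) and with the length-trend offset (right), ordered by subcomplex; dots mark an adjusted p under 0.05. The red of shaking and of R21H11 and R65H02 against GAL4 29C, and the blue against TrpA1 21C in HC and R60F09, both turn paler and partly change sign on the right.

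The same relation with transcript length ran through the lines. Spearman's rho between length and log2 change over the 31 subunits was −0.83 in R21H11 and −0.83 in R65H02 against GAL4 29C, beside −0.75 and −0.63 over all genes. It was 0.66 in HC and 0.78 in R60F09 against TrpA1 21C, beside 0.46 and 0.59, and 0.08 in HC against GAL4 29C, beside −0.21. The ratio of the summed TPM of 13 core subunits to that of 18 cap subunits was 1.03 in R21H11 TrpA1 29C, against 0.761 in GAL4 29C and 0.892 in TrpA1 21C, and 0.978 in R65H02, against 0.782 and 0.849. In HC it was 0.776, against 0.776 and 0.869, in R60F09 0.800, against 0.798 and 0.977, and in R85C10 0.846, against 0.761 and 0.746. What the length trend stands for was not tested.

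Genes that work with the proteasome were counted from 6 lists. Of 9 assembly factors, activators and bound enzymes, 3, 6 and 2 were higher after 3, 6 and 12 h of shaking and 0 lower, beside 23.6, 46.1 and 16.3% of all genes called in either direction. By limma on log2(TPM + 1) there were 1 higher and 1 lower at 3 h, 1 higher and 4 lower at 6 h and 1 higher and 1 lower at 12 h. The all-gene medians after shaking were negative on that scale. For this list and those below, its shares of all genes called are given above with the shaking, R21H11 and R65H02 results. Pomp, the chaperone that builds the core, had 48.3, 43.1 and 52.8 CPM after 3 h, 58.4, 62.9 and 58.1 CPM after 6 h and 41.2, 58.3 and 42.7 CPM after 12 h, against 26, 32 and 26.4 CPM in ZT0 brains. All shaken libraries lay above all ZT0 libraries. Its log2 changes were 0.76 (adjusted p = 0.000786), 1.06 (8.79e-06) and 0.75 (0.00252), and 0.67 (0.000357) at 6 h with the length-trend offset. In the lines, 6 of 9 were higher in R21H11 and 5 in R65H02 against GAL4 29C (47.2 and 53.8% of genes), and 0 and 4 against TrpA1 21C (3.03 and 30.3%). On log2(TPM + 1), R21H11 had 2 higher and 1 lower and R65H02 0 higher and 3 lower against GAL4 29C. In R85C10 5 were higher against TrpA1 21C on both scales (18.7% of genes on counts and 17.3% on TPM).

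Of 6 genes that control proteasome transcription, 2 were higher after 6 h of shaking (46.1% of genes) and 4 in R65H02 TrpA1 29C against GAL4 29C (53.8%). On log2(TPM + 1) these were 1 higher and 3 lower at 6 h, and 1 higher and 2 lower in R65H02. The small Maf partner maf-S rose by 0.91 at 6 h (adjusted p = 0.000489; 0.23, 0.0823, with the length-trend offset). It had 120, 117 and 136 CPM after 6 h, against 63.4, 65.5 and 65.1 CPM in ZT0 brains, with no overlap. Its changes were 1.11 (0.00351) and 0.86 (0.0295) in R21H11 against GAL4 29C and TrpA1 21C, and 1.02 (2.68e-05) and 0.93 (0.000141) in R65H02. Its line changes with the offset and the changes of cnc are not given here. No change of the pair is read from maf-S alone. The TER94 segregase and its cofactors (4 genes), which pull tagged proteins from complexes, had 2 higher at 6 h (46.1% of genes). In R65H02, 3 of them were higher against each control (53.8% of genes against GAL4 29C and 30.3% against TrpA1 21C). On log2(TPM + 1) the TER94 group had 0 higher and 2 lower at 6 h, 0 called in R65H02 against GAL4 29C and 1 higher against TrpA1 21C. Of 7 genes of ubiquitin and its activation 4 were higher and 2 lower at 6 h (46.1% of genes), or 2 higher and 5 lower on log2(TPM + 1). Of the 8 tested subunits of the COP9 signalosome, which resembles the lid, 4 were higher at 6 h (46.1% of genes). In R21H11 against GAL4 29C, 4 were higher (47.2% of genes). On log2(TPM + 1) these were 1 higher and 2 lower at 6 h, and 0 called in R21H11.

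The CCT chaperonin, another ring complex of every cell, folds actin and tubulin. Of its 8 subunits 6 were higher after 6 h of shaking (46.1% of genes), whereas on log2(TPM + 1) 0 were higher and 2 lower. Against TrpA1 21C, 8 were higher in each of R21H11 (3.03% of genes), R65H02 (30.3%), HC (33.5%) and R60F09 (44.7%) and 6 in R85C10 (18.7%), with median log2 changes of 1.16, 1.46, 0.89, 0.99 and 0.85. By limma on log2(TPM + 1) these counts were 5, 8, 8, 8 and 7, again with 0 lower, and the shares of all genes are given above with each line. Against GAL4 29C, 8 were higher in R21H11 (47.2% of genes), 8 in R65H02 (53.8%) and 3 in HC (0.989%). In R60F09 and R85C10, 0 were higher, with the shares given above. On log2(TPM + 1) there were 2 in R21H11, 2 in R65H02 and 0 in the other lines. The shares on that scale are given above for R21H11 and R65H02 and not given here for the other lines. Against TrpA1 21C in HC and R60F09, the proteasome subunits had negative medians on counts, −0.31 and −0.35, and positive ones on log2(TPM + 1), 0.04 and 0.22, whereas the CCT medians were positive on both scales. The all-gene medians on log2(TPM + 1), given above for both lines, were larger than these subunit medians. Ubqn, which carries tagged proteins to the proteasome, had 327, 310 and 310 CPM in R65H02 TrpA1 29C, against 271, 293 and 298 CPM in GAL4 29C and 183, 185 and 184 CPM in TrpA1 21C. Both warmed groups lay above the 21 °C group, and the change against TrpA1 21C was 0.78 (adjusted p = 1.40e-06).

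The 15 testis-type copies were almost silent in these brains. Of them 11 did not pass the filter on low counts, with at most 11 counts in any library, and Prosbeta4R2 had 0 in all 72. The 4 that passed had mean levels of 3.28 TPM for Prosalpha4T1, 2.94 TPM for Rpn13R, 2.39 TPM for Rpt3R and 0.797 TPM for Rpt6R. Prosalpha4T1 had 5, 3 and 0 counts after 6 h of shaking, against 17, 16 and 17 counts in ZT0 brains (−1.79, adjusted p = 0.0169), and 7, 1 and 3 counts in R21H11 TrpA1 29C, against 16, 8 and 10 counts in GAL4 29C (−1.79, 0.0314). Rpn13R had 15, 18 and 29 counts in R21H11 TrpA1 29C, against 6, 5 and 4 counts in GAL4 29C (1.98, 0.0144). It had 15, 8 and 9 counts in HC TrpA1 29C, against 19, 22 and 22 counts in TrpA1 21C (−1.26, 0.021). Rpt3R was higher in GAL4 29C than in TrpA1 21C in R65H02 (1.28) and R60F09 (1.57). These changes rest on few counts per library.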

How the data were processed

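RNA of whole fly brains was sequenced in 72 libraries of 24 groups. The authors deposited estimated counts (expected counts) per gene and the same genes in TPM, which is corrected for transcript length. kallisto 0.46.1 is named per the submitters' processing notes, and the genome build and annotation are not given in the sources used here, so no coordinates are printed. Each column matched the label of 1 sample, and 0 columns were left over. Of the estimated counts as deposited, 89.0% lay within 0.02 of a whole number, and all were rounded.

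Genes were filtered with filterByExpr, scaled with TMM and tested with edgeR 4.0.16 quasi-likelihood F-tests in R 4.3.3, with Benjamini-Hochberg adjustment over all genes of a fit and a threshold of 0.05. Fits held the shaken groups with ZT0, the 6 zeitgeber groups, each line alone, or the 4 wake-promoting lines together. CPM is TMM-scaled. Alternatives were DESeq2 1.42.0, RLE scaling, no filter, a block for the replicate number, leaving out each replicate, limma 3.58.1 on log2(TPM + 1) and log2(TPM + 0.1), and a length-trend offset. The TPM values were not TMM-scaled, so a change on that scale is read beside the all-gene median. For the offset, each gene's log2 CPM was taken as a deviation from its mean over the fit. The lowess curve (span 0.3) of these deviations on relative gene length was fitted in each library. That length is the estimated count divided by the TPM. Summing Prosalpha1 with CG30382 was added after seeing the data. The code was tested on simulated data. Python 3.11.15 and pandas 2.3.3 handled tables, and matplotlib 3.10.9 drew figures.

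Named in every comparison were Prosbeta5, Rpn11 and Rpt3, and up to 3 higher and 3 lower subunits past the threshold with the largest log2 change; further subunits named were chosen after their values were seen. The members and lists were chosen with earlier results of these data known. Of the 8 listed ubiquitin genes 7 were found. The chaperonin subunit CCT2 was matched to CG7033, since the symbol Cct2 in the tables is also an older name of Pcyt2. Depth was 4175587 to 13435817 counts per library. No promoter motif search was run.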

Additional observations from a re-analysis of the deposited data

Results flagged for a closer look

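The effect of TrpA1 activation on the subunits differed among the 4 wake-promoting lines, by a test of the difference itself in edgeR. It passed for 16 of the 32 subunits against the GAL4 control 29C (36.7% of genes) and for 23 against TrpA1 21C (41.6% of genes). With the length-trend offset these counts were 3 and 7, and without replicate 1 of every group 1 and 7. Against the GAL4 control, the change of Prosbeta5 was 1.14 in R21H11, 0.60 in R65H02, 0.22 in HC and 0.19 in R60F09 (adjusted p = 0.00308). Rpn11 had 0.69, 0.50, −0.04 and 0.17 in the same lines (0.00464), Prosalpha3 1.09, 0.80, −0.05 and 0.13 (0.00376), Prosbeta1 1.08, 0.78, 0.06 and −0.02 (0.00534), and Prosbeta4 0.97, 0.53, −0.02 and −0.04 (0.00891).

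Against TrpA1 21C, Prosbeta5 had 0.49, 0.05, −0.37 and −0.46 in R21H11, R65H02, HC and R60F09 (adjusted p = 0.00159, edgeR), Rpn11 had 0.04, −0.09, −0.57 and −0.56 (0.00283) and Rpt3 had 0.17, 0.03, −0.22 and −0.23 (0.0182). Prosalpha5 had 0.30, 0.54, −0.39 and −0.90 (0.000333), Prosalpha7 0.50, 0.49, −0.32 and −0.63 (0.000184), and Prosbeta4 0.24, 0.06, −0.47 and −0.93 (0.00189). Without replicate 2 of every group, 0 subunits passed against GAL4 29C and 4 against TrpA1 21C. A search for single libraries far from their group needs at least 4 libraries and was not made in these groups of 3.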

How the results depend on the processing

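With the length-trend offset the counts were 1 at 3 h, 9 at 6 h and 0 at 12 h of shaking, 0 among durations, 3 over zeitgeber time, 4 in R21H11 against GAL4 29C, 4 between its controls and 0 against both. In R65H02 they were 6, 7 and 1 in the same comparisons. HC had 5 against TrpA1 21C and 5 between controls, R60F09 8 and 8, and the 4 wake-promoting lines 12 for the mean against GAL4 29C, 3 for its differences among lines and 7 for those against TrpA1 21C. By limma on log2(TPM + 1) the counts were 9 at 3 h, 2 among durations, 9, 0, 0 and 0 in R21H11 (against GAL4 29C, against TrpA1 21C, between controls, against both), 10, 3, 8 and 2 in R65H02, 7 and 6 in HC and 10 and 8 in R60F09 (against TrpA1 21C, between controls), 5 in R85C10 against TrpA1 21C, and 17, 5 and 12 for the mean against GAL4 29C and the differences among lines in both contrasts. DESeq2 gave 1 in R85C10 against TrpA1 21C and 1 between its controls, no low-count filter 4 against TrpA1 21C, and the sum of Prosalpha1 and CG30382 1 between its controls. Without ZT20, 0 passed over zeitgeber time, also 0 with the replicate block and 0 with the offset. Counts in this section are printed without the share of all genes, so a move in them is not read as particular to the subunits. The cause of these moves was not tested.

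Replicate numbers were not taken as pairing the samples. Same-numbered libraries of the zeitgeber groups had a mean correlation of deviations of 0.37 and a lowest one of 0.053. Libraries of other numbers had a mean of −0.18, and 17 of 18 lay nearest to a library of the same number. The main zeitgeber test had no term for the number, and what same-numbered libraries share was not tested. In the other fits the means of same-numbered libraries were −0.08 to 0.08. With the replicate block the counts were 0 in R21H11 against TrpA1 21C, 0 against both controls and 8 in R85C10 against TrpA1 21C; the block moved no other count of called subunits by over 1.5 times. Offset and block together gave 1, 7, 0 and 0 for 3, 6 and 12 h and among durations, 4 over zeitgeber time, 3, 2 and 0 in R21H11 (against GAL4 29C, between controls, against both), 7, 7 and 2 in R65H02, 4 and 4 in HC and 7 and 7 in R60F09 (against TrpA1 21C, between controls), and 12, 3 and 6 for the wake-promoting lines.

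The median change at 6 h went to about 0 with the offset (−0.0012) and with offset and block (−4.30e-05). On log2(TPM + 1) it was −0.0695, above the all-gene median on that scale given with the shaking results, so this sign is not read as a reversal. On log2(TPM + 1) the medians between controls changed sign to 9.01e-05 in R65H02, 0.11 in R60F09 and 0.06 in R21H11. The median also changed sign to −0.04 at 3 h, −0.06 at 12 h, 0.04 in HC and 0.22 in R60F09 against TrpA1 21C, and 0.10 for the mean of the wake-promoting lines against TrpA1 21C. The TPM values were not TMM-scaled, and wherever all-gene medians on that scale are given above, they moved as well. Single genes changed sign there too, none past the threshold in limma, and none is read as a reversal. At 3 h Rpt3 had −0.0446, and at 6 h Prosbeta5 had −0.076, Rpn11 −0.0559 and Rpt3 −0.0525. Between controls Rpt3 had 0.0154 in HC and 0.12 in R60F09, and against TrpA1 21C Prosbeta5 had 0.0908 in R60F09. Prosbeta5 at 6 h was −0.0492 with the offset and −0.0486 with offset and block. Of the alternatives for named genes, 925 kept direction and side of the threshold, 203 lost the threshold, 15 gained it and 9 changed sign.

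Leaving out one replicate gave 11 to 14 at 3 h, 20 to 23 at 6 h, 6 to 10 at 12 h, 1 to 10 among durations and 3 to 13 over zeitgeber time. Against GAL4 29C, against TrpA1 21C, between controls and against both, it gave 19 to 22, 0 to 1, 0 to 18 and 0 to 1 in R21H11, 23 to 25, 5 to 8, 14 to 19 and 5 to 8 in R65H02, 0 to 1, 4 to 18, 5 to 22 and 0 to 0 in HC, 0 to 0, 9 to 21, 14 to 24 and 0 to 0 in R60F09, and 0 to 0, 0 to 5, 0 to 0 and 0 to 0 in R85C10. The wake-promoting lines gave 23 to 26 and 3 to 8 for the means against GAL4 29C and TrpA1 21C, and 0 to 18 and 4 to 19 for the differences. These ranges too come without the share of all genes.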
